A study of Arabidopsis thaliana with 24 samples.

Results

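The organs of neo-tetraploid Arabidopsis grown without added salt were compared through 6 of the 24 libraries of the series, 3 of roots and 3 of shoots. A neo-tetraploid is a plant whose genome has recently been doubled, here from the wild-type accession Col-0. The libraries were taken by their labels, which give the ploidy, the organ, the treatment and the replicate number of each one. Plants of both ploidies had grown for 2 weeks on agar plates of 1/4 Hoagland medium with 1% sucrose, either as controls or with 35 mM added NaCl. The 8 groups of ploidy, treatment and organ held 3 libraries each. The diploid (2n) control roots and shoots served to ask whether organ differences were kept after genome doubling, and the neo-tetraploid (4n) roots and shoots with NaCl whether they were kept under salt. According to the study's methods a library holds RNA of pooled plants and all replicates come from one experiment, so a p-value here measures only the spread between these samples. The sources used here do not say how many independently doubled lines went into the pools.

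Roots anchor the plant and take up water and ions, which cross the endodermis, a cell layer sealed by the lignin rings of the Casparian strip and by suberin lamellae. Shoots carry out photosynthesis in chloroplasts, are covered by a waxy cuticle and exchange gas through stomata. Genome doubling gives each nucleus an additional copy of every chromosome set and is known for enlarging cells, while the body plan of root and shoot stays recognisable.

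The expected count, RSEM's estimate of a gene's reads, summed to between 11202503 and 11909554 over the 24 libraries, and no pair of libraries held identical values. Chloroplast genes took 0.109% to 0.127% of the counts in 4n control roots and 4.58% to 5.32% in 4n control shoots. The genes counted as rRNA took 5.39% to 5.83% in these roots and 2.84% to 3.61% in these shoots. These rRNA shares leave out at least part of the chloroplast rRNA. The pair of chloroplast rRNA genes named below held 187774 and 217652 counts each in shoot replicates 1 and 3. Together the pair exceeded the rRNA share given for either library. The shares therefore do not compare total rRNA between the organs. The labels of the organs were checked with markers. All 12 root markers, among them EXPA7, CASP1 and SMB, were higher in roots, with summed levels of 461 to 552 FPKM (fragments per kilobase of transcript, scaled by the library) in roots and 3.65 to 6.71 FPKM in shoots. All 11 shoot markers, among them LHCB1.3, FAMA and STM, were higher in shoots, with summed levels of 35332 to 38959 FPKM in shoots and 70.9 to 117 FPKM in roots. Of the shoot markers, 5 had no count in any 4n control root library. Replicate 1 of the 4n control shoots stood apart from replicates 2 and 3 in a group of genes described with the ploidy comparison. It also held more of some root-high genes. The summed Casparian strip level was 27.3, 17.75 and 16.8 FPKM in shoot replicates 1, 2 and 3. For xylem genes it was 75.9, 50.4 and 52.0 FPKM. Summed root hair, nitrogen transport, and potassium and sodium transport levels were not highest in replicate 1.

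Roots and shoots of neo-tetraploids differed in a large share of their transcripts. Of 21338 genes tested, 9332 (43.7%) were called, 4638 (21.7%) higher in root and 4694 (22.0%) higher in shoot. A gene was called at an adjusted p under 0.05 and a difference of at least 2-fold in edgeR's quasi-likelihood test, with Benjamini-Hochberg adjustment of p across the table, and every adjusted p below comes from this test unless another tool is named. The difference was at least 16-fold for 1671 genes higher in root and 1425 higher in shoot, and at least 256-fold for 239 and 351. The 3 root and 3 shoot libraries did not overlap in TMM-scaled counts for 14790 genes (69.3% of those tested), and for 4599 of the genes called higher in root and 4584 of those called higher in shoot. Statements on the overlap of a whole list below use the same scaled counts. Differences are log2 values of root minus shoot, given with their standard error, so that a negative value is higher in shoot.

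The balance between the organs depended on the scaling. The main scaling (TMM) set the median log2 difference of all tested genes at 0.03, while scaling by library size alone set it at 0.52 and counted 6704 genes higher in root and 3650 higher in shoot, a split of 64.7% against 49.7% for root. Of the 9332 genes called with TMM, 8288 were called in the same direction with library-size scaling and 0 in the opposite direction. FPKM is a level per length that is scaled by the library, so ratios of FPKM between the organs lie about that shift nearer to root than the log2 differences given here. A transcript level in a whole organ falls both when fewer cells of a type are present and when each cell holds less of the RNA, and these libraries cannot tell the 2 apart.

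The genes of leaf functions and of root functions lay at opposite ends of this range. The lists behind the plot of member differences by list hold 17 sets of genes known for a role in one organ or in both. Every member of the antenna, Casparian strip and root hair lists was called in one direction, while the potassium and sodium list and the nitrogen list held members called in each direction.

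**Figure D1:**
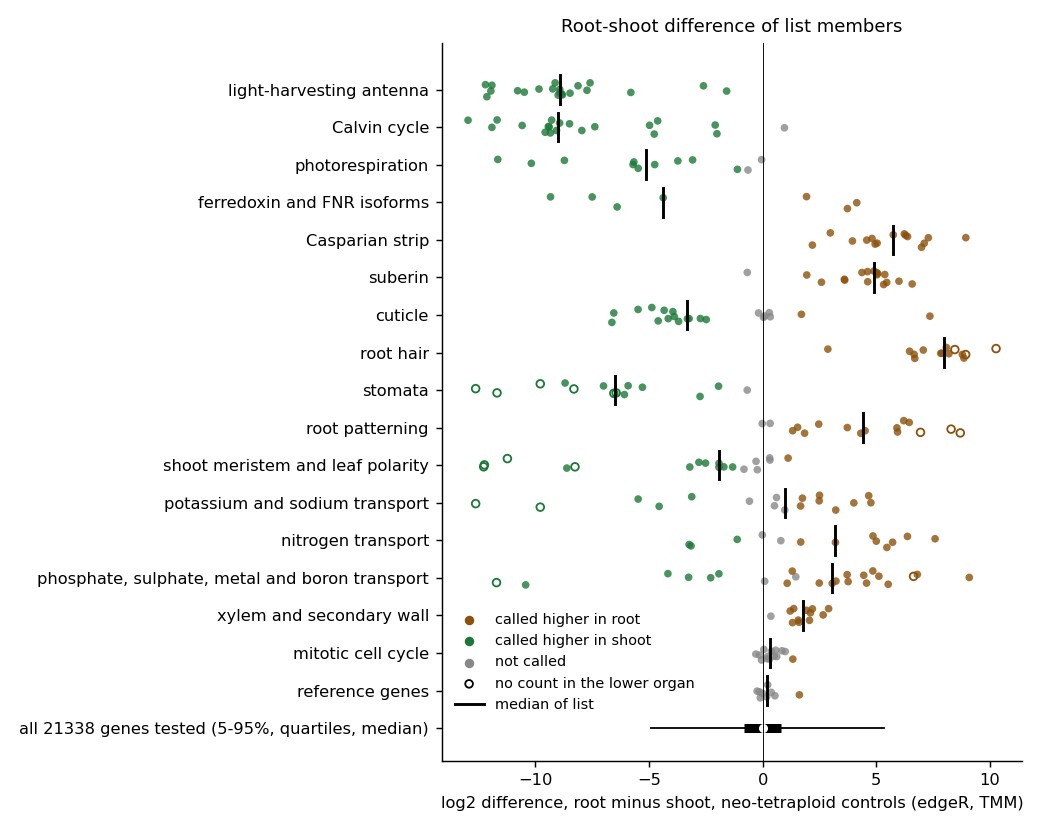
Log2 difference of root minus shoot in neo-tetraploid controls for the tested members of 17 gene lists, 1 point a gene, with the median of each list as a black bar and the 5th to 95th percentile, quartiles and median of all 21338 tested genes in the bottom row. Open points had no count in the lower organ, so their position is not a bound. All 21 antenna members lie left of 0 around a median of -8.93 and all 15 Casparian strip members right of 0 around a median of 5.75, while the mitotic and reference lists lie near 0.

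The light-harvesting antenna proteins bind chlorophyll and pass excitation energy to photosystem I (LHCA genes) and photosystem II (LHCB genes). All 21 members were higher in shoot (22.0% of all tested genes were), with a median log2 difference of -8.93 against 0.03 over all tested genes. For all 21 the libraries of the organs did not overlap, as held for 69.3% of all tested genes. LHCB1.3 (AT1G29930) had the highest level of the list, with 57.4, 64.8 and 38.8 FPKM in the root libraries and 19171, 22655 and 26953 FPKM in the shoot libraries (log2 difference -9.24 ± 0.37, adjusted p = 1.33e-14). The largest difference was that of LHCB1.1 (AT1G29920), which had 0.7, 3.03 and 1.1 FPKM in the root libraries and 6867, 6175 and 2885 FPKM in the shoot libraries (log2 difference -12.19 ± 1.05, adjusted p = 2.21e-09). The LHCB1 copies are nearly identical, so the division of reads between them is uncertain. At the other end, LHCB4.3 (AT2G40100), a rare form of the minor antenna protein CP29, had only 1.58, 1.58 and 1.98 FPKM in the root libraries and 2.92, 3.99 and 3.99 FPKM in the shoot libraries (log2 difference -1.58 ± 0.29, adjusted p = 8.31e-05). All 3 of its shoot values lay above its root values, but by far less than for the rest of the list, as did those of LHCB7 (log2 difference -2.6 ± 0.32). The shoot libraries differed among themselves, since 18 of the 21 antenna genes were lowest in shoot replicate 3. Root replicate 3 was the lowest root library for 14 of the 21, and the summed antenna level was lowest in replicate 3 in every group of the series. LHCB2.3 had 0.66, 0.94 and 0 FPKM in the root libraries and 2092, 2059.5 and 253 FPKM in the shoot libraries (log2 difference -11.91 ± 1.4, adjusted p = 2.50e-07).

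The 250 bases before the start of each gene in the TAIR10.1 assembly of RefSeq were searched on both strands for the G-box, CACGTG, a motif known from light-regulated plant genes. It was found before 5 of the 21 antenna genes (23.8%) and before 6.49% of 27443 protein-coding genes. A match is a description of these letters and was not tested as a site. The I-box, GATAAG, was found before 19.0% of the antenna genes and 12.3% of all, and TATAAA before 38.1% and 47.3%. The whole window of LHCA4 (chr3:17495034-17495283, minus strand) is shown with 36-base stretches of LHCB4.1 (chr5:208777-208812, plus strand) and LHCB2.3 (chr3:10255803-10255838, plus strand), whose windows overlap no other annotated gene, to display where the motif sits among its neighbours. Capitals mark the G-box, which starts 88, 74 and 88 bases upstream of the gene start. The other matches lie before LHCB6 and LHCB7, whose windows overlap neighbouring genes and are not printed.
LHCA4: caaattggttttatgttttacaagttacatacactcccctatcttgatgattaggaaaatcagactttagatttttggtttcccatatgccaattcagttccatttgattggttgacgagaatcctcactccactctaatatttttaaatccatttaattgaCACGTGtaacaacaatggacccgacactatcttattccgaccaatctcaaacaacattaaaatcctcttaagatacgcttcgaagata
LHCB4.1: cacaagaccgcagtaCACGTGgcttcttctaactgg
LHCB2.3: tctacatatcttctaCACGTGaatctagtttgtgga
The 3 genes shown here were among the shoot-high members, with 33.6, 39.9 and 15.4 FPKM for LHCA4 in the root libraries and 4735, 4714 and 2609 FPKM in the shoot libraries (log2 difference -7.59 ± 0.64, adjusted p = 1.63e-09), and with a log2 difference of -7.73 ± 0.27 for LHCB4.1.

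The Calvin cycle fixes CO2 in the chloroplast stroma. Of its 20 members, 19 were higher in shoot and 0 higher in root, with a median of -9.0. The shares over all tested genes were 22.0% and 21.7%. No member had overlapping organs, as held for 69.3% of all tested genes. RBCS1A (AT1G67090), which encodes the most abundant small subunit of Rubisco, had 33.1, 39.7 and 21.9 FPKM in the root libraries and 12837, 13041 and 9977 FPKM in the shoot libraries (log2 difference -9.07 ± 0.33, adjusted p = 3.61e-15). RBCS3B, another small subunit gene, had 0.56, 1.05 and 0.43 FPKM in the root libraries and 4040.4, 4795 and 2827 FPKM in the shoot libraries (log2 difference -12.96 ± 0.73, adjusted p = 3.10e-12). All root values of both genes lay far below all shoot values, although reads of near-identical small subunit genes can be exchanged between them. A smaller difference was found for the transketolase TKL1, which also serves other plastid pathways. TKL1 had 189, 186 and 162 FPKM in the root libraries and 520.4, 439 and 577 FPKM in the shoot libraries (log2 difference -2.01 ± 0.22, adjusted p = 1.18e-07). CP12-3 (AT1G76560), a member of the family of small proteins that hold the enzymes GAPDH and PRK together in the dark, had 50.8, 48.6 and 37.9 FPKM in the root libraries and 19.7, 13.7 and 16.7 FPKM in the shoot libraries. It was the only member that was higher in root, by less than the 2-fold limit (log2 difference 0.96 ± 0.19, adjusted p = 2.12e-04), which it passed without root replicate 3 or shoot replicate 1 (log2 difference 1.08 in both cases) and with library-size scaling (1.45).

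Photorespiration recycles the product of the oxygenase reaction of Rubisco through chloroplast, peroxisome and mitochondrion. Of 12 members, 10 were higher in shoot and 0 higher in root (median -5.11), against 22.0% and 21.7% of all tested genes. SHM1, the mitochondrial serine hydroxymethyltransferase, had 29.8, 30.1 and 19.4 FPKM in the root libraries and 1019.9, 1030.1 and 787 FPKM in the shoot libraries (log2 difference -5.67 ± 0.23, adjusted p = 2.58e-14). PGLP1, the chloroplast phosphatase that starts the pathway, was almost undetected in root with 0, 0 and 2 counts, against 2188, 1882 and 1501 counts in shoot (3881-fold, 95% interval 1074 to 32060; counting error only). The 2 members that were not called were GLDP2 and CAT2. GLDP2, a P subunit of glycine decarboxylase, had 86.05, 91.9 and 67.9 FPKM in the root libraries and 116, 98.8 and 55.8 FPKM in the shoot libraries (log2 difference -0.64 ± 0.25, adjusted p = 0.0309). CAT2, the main leaf catalase, had 207, 218 and 215 FPKM in the root libraries and 224, 193 and 46.5 FPKM in the shoot libraries (log2 difference -0.05 ± 0.49, adjusted p = 0.939). Its levels overlapped, and shoot replicate 3 was the lowest of all 6 libraries.

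The chloroplast genome was part of the same contrast. Of its 71 tested genes, 70 were called higher in shoot, against 22.0% of all tested genes. Of 36 tested mitochondrial genes 7 were called higher in root, close to the 21.7% of all tested genes. The libraries were enriched for polyadenylated RNA, which organellar transcripts mostly lack, so these counts describe what passed the enrichment.

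Ferredoxins are small iron-sulphur proteins that carry electrons, and ferredoxin-NADP reductases (FNR) exchange those electrons with NADPH, towards NADPH in leaf chloroplasts and towards ferredoxin in root plastids. The leaf and root forms are encoded by different genes, and the libraries separated them in both protein families. Of 8 members 7 were tested, 4 of which were higher in shoot and 3 higher in root. The shares over all tested genes were 22.0% and 21.7%. None of the 7 overlapped between organs, as held for 69.3% of all tested genes. FD4 had no count in any of the 6 libraries. Among the ferredoxins, FD2 (AT1G60950), the main leaf form, had 28.5, 25.4 and 20.5 FPKM in the root libraries and 1901, 1397 and 1157 FPKM in the shoot libraries (log2 difference -6.4 ± 0.25, adjusted p = 1.38e-14). FD1, the minor leaf form, had 8.04, 9.71 and 5.84 FPKM in the root libraries and 117, 127 and 102 FPKM in the shoot libraries (log2 difference -4.37 ± 0.27, adjusted p = 1.28e-11). FD3 (AT2G27510), the root form, had 174, 174 and 167 FPKM in the root libraries and 9.08, 7.93 and 10.5 FPKM in the shoot libraries (log2 difference 3.73 ± 0.21, adjusted p = 2.16e-12). The leaf forms were therefore high in all 3 shoot libraries and the root form in all 3 root libraries. The ratio of FD2 to FD3 in FPKM was 0.123 to 0.164 in roots and 111 to 209 in shoots. In diploid controls the same ratio was 0.141 to 0.232 in roots and 131 to 200 in shoots.

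The reductases followed the same division. LFNR1 and LFNR2, the leaf enzymes, had log2 differences of -7.5 ± 0.2 and -9.33 ± 0.24, and LFNR2 had 2.02, 1.77 and 1.9 FPKM in the root libraries and 885, 832 and 888 FPKM in the shoot libraries. RFNR2 (AT1G30510), the more abundant root enzyme, had 471, 353 and 279.9 FPKM in the root libraries and 19.3, 12.2 and 12.96 FPKM in the shoot libraries (log2 difference 4.14 ± 0.32, adjusted p = 4.86e-10). RFNR1 had 53.2, 37.3 and 32.6 FPKM in the root libraries and 8.9, 6.63 and 7.4 FPKM in the shoot libraries (log2 difference 1.93 ± 0.23, adjusted p = 2.43e-07). As the plot of ferredoxin and reductase levels shows, no isoform was high in both organs.

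**Figure D2:**
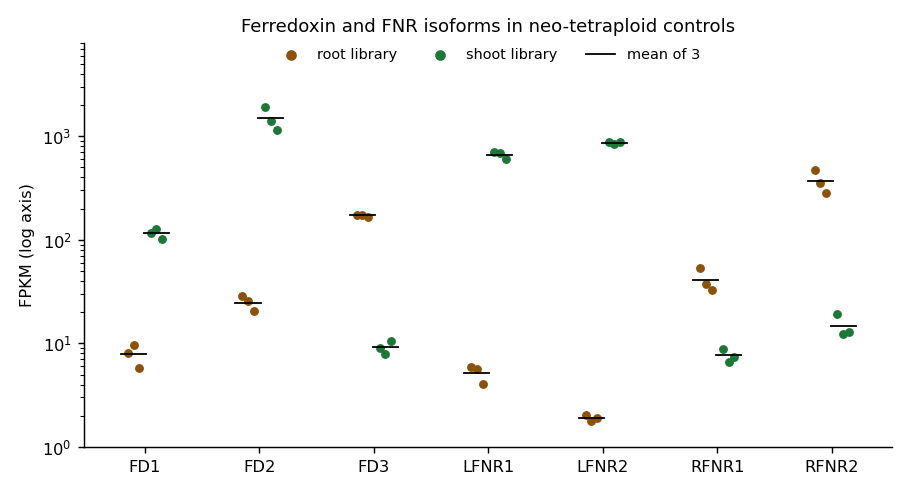
FPKM (log axis) of the 7 detected ferredoxin and FNR genes in the 3 root and 3 shoot libraries of neo-tetraploid controls, 1 point a library, with the mean of 3 as a bar. FD1, FD2, LFNR1 and LFNR2 are higher in all shoot libraries, and FD3, RFNR1 and RFNR2 are higher in all root libraries.

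On the root side, the Casparian strip list holds the genes that place and build the ring of lignin around each endodermal cell. All 15 members were higher in root (21.7% of all tested genes were), with a median of 5.75. None overlapped between organs, as held for 69.3% of all tested genes. The peptide gene CIF2, which signals whether the ring is closed, had the highest level, with 219, 232 and 203 FPKM in the root libraries and 8.54, 5.15 and 2.77 FPKM in the shoot libraries (log2 difference 4.81 ± 0.23, adjusted p = 2.67e-13). CASP1 (AT2G36100), one of the membrane proteins that mark the site of the strip, had 84.3, 135 and 131 FPKM in the root libraries and 0.52, 0.73 and 0.51 FPKM in the shoot libraries (log2 difference 7.11 ± 0.32, adjusted p = 8.69e-14). ESB1, a dirigent-like protein needed for lignin placement, had 122, 131 and 132 FPKM in the root libraries and 2.81, 2.61 and 2.84 FPKM in the shoot libraries (log2 difference 5.04 ± 0.16, adjusted p = 7.08e-16), and its shoot values varied by little. The smallest difference of the list was that of the NADPH oxidase RBOHF, which also has known roles outside the endodermis. RBOHF had 29.4, 26.3 and 31.1 FPKM in the root libraries and 4.32, 4.24 and 4.93 FPKM in the shoot libraries (log2 difference 2.19 ± 0.13, adjusted p = 1.00e-11).

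Suberin, the polyester of the same cell layer, gave a similar picture. Of 17 members 16 were higher in root and 0 higher in shoot (median 4.9), against 21.7% and 22.0% of all tested genes. None of the 17 overlapped between organs, as held for 69.3% of all tested genes. FAR5, which makes primary fatty alcohols for suberin, had 126, 111 and 119 FPKM in the root libraries and 4.77, 1.25 and 1.58 FPKM in the shoot libraries (log2 difference 5.06 ± 0.35, adjusted p = 9.01e-11). GPAT5 (AT3G11430), the acyltransferase often used as a suberin marker, had 23.4, 22.2 and 23.5 FPKM in the root libraries and 0.59, 0.36 and 0.26 FPKM in the shoot libraries (log2 difference 5.33 ± 0.39, adjusted p = 1.96e-10). Several enzymes were higher in shoot replicate 1 than in the other shoot libraries while remaining far under every root library, for example CYP86A1 with 4.48, 1.41 and 1.91 FPKM in shoots and 106, 113 and 107 FPKM in roots (log2 difference 4.9 ± 0.37, adjusted p = 2.69e-10). MYB41, a regulator of suberin synthesis, had 52, 58 and 64 counts in root and 0, 1 and 0 counts in shoot (125-fold, 95% interval 22.1 to 4960). KCS20, a fatty acid elongase that also acts in wax synthesis, was the exception, with 66.9, 61.6 and 70.5 FPKM in the root libraries and 80.1, 64.8 and 80.7 FPKM in the shoot libraries (log2 difference -0.67 ± 0.12, adjusted p = 4.45e-05).

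The cuticle of the shoot is made of cutin, a polyester related to suberin, and of waxes. Of 24 members 21 were tested, of which 14 were higher in shoot, 2 higher in root and 5 not called (median -3.31). Over all tested genes 22.0% were higher in shoot and 21.7% higher in root. The organs did not overlap for 16 members, near the 69.3% of all tested genes. LTPG1, a lipid transfer protein of the epidermis, had the highest level, with 18.97, 23.9 and 35.04 FPKM in the root libraries and 162, 190.5 and 164 FPKM in the shoot libraries (log2 difference -3.23 ± 0.28, adjusted p = 1.91e-09). CER6 (AT1G68530), the elongase of wax precursors, had 1.5, 1.5 and 2.92 FPKM in the root libraries and 121, 152 and 118 FPKM in the shoot libraries (log2 difference -6.55 ± 0.37, adjusted p = 2.80e-12). CER2, which acts with it, had 0.28, 0.17 and 0.28 FPKM in the root libraries and 17.5, 19.9 and 15.2 FPKM in the shoot libraries (log2 difference -6.63 ± 0.56, adjusted p = 1.60e-09). The 2 members that were higher in root were CER4 and GPAT6. CER4 (AT4G33790), a fatty acyl reductase that makes the primary alcohols of wax, had 274, 227 and 256 counts in root and 1, 2 and 0 counts in shoot (181-fold, 95% interval 61.7 to 880.1). GPAT6, an acyltransferase of cutin synthesis, had 29.1, 32.5 and 30.8 FPKM in the root libraries and 7.07, 6.44 and 6.5 FPKM in the shoot libraries (log2 difference 1.71 ± 0.17, adjusted p = 3.03e-08). The 3 remaining members of the list, MAH1, WSD1 and SHN1, had too few counts to be tested.

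Root hairs are outgrowths of single epidermal cells of the root. All 14 members of the list were higher in root (21.7% of all tested genes were). None overlapped, as held for 69.3% of all tested genes. The median was 7.99, or 7.02 with the 3 genes without a shoot count set at their lower bound. PRP3 (AT3G62680), a structural cell wall protein of root hairs, had the highest level, with 186, 119.8 and 113 FPKM in the root libraries and 0.38, 0.9 and 0 FPKM in the shoot libraries (log2 difference 7.84 ± 0.48, adjusted p = 1.12e-11). RHD6 (AT1G66470), a transcription factor that starts hair development, had 186, 175 and 163 counts in root and none in the 3 shoot libraries, so it was at least 125-fold higher in root against a floor of 3 counts over the 3 libraries. Such bounds and the ratios of genes with few counts use TMM-scaled library sizes, as the log2 differences do, and library-size scaling would raise those of root-high genes and lower those of shoot-high genes. EXPA7 (AT1G12560), an expansin of hair cell walls, had 34.5, 42.05 and 39.9 FPKM in the root libraries and 0, 0.17 and 0.08 FPKM in the shoot libraries (324-fold, 95% interval 111 to 1573). The smallest difference was that of LRX2, an extensin-like wall protein, with 5.39, 3.68 and 5.72 FPKM in the root libraries and 0.32, 0.63 and 0.48 FPKM in the shoot libraries (log2 difference 2.87 ± 0.41, adjusted p = 3.80e-06).

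The same windows of 250 bases held the root hair element, a degenerate consensus described for root hair genes, before 5 of the 14 list members (35.7%) and before 0.754% of 27443 protein-coding genes. It was found before 0 genes of the antenna, Calvin cycle, Casparian strip, suberin and stomata lists. The consensus was drawn up from root hair genes that include EXPA7 and EXPA18, so the share in this list is no independent observation. The window of PRP3 (chr3:23182472-23182721, plus strand of TAIR10.1) is shown with stretches of EXPA7 (chr1:4276412-4276458), LRX1 (chr1:4069884-4069929) and PRP1 (chr1:20504757-20504803), all read on the plus strand and overlapping no other annotated gene, because these are the matches that set the list apart from the other lists searched. Capitals mark the match, which lies on the strand of the gene in EXPA7 and on the opposite strand in PRP3, LRX1 and PRP1. The match before EXPA18 is not printed because its window overlaps another gene.
PRP3: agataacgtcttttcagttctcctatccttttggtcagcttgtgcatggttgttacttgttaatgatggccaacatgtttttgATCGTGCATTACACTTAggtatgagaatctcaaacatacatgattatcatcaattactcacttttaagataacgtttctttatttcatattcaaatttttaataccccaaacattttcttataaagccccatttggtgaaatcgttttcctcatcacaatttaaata
EXPA7: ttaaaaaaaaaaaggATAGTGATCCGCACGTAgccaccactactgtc
LRX1: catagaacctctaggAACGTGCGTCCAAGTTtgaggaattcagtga
PRP1: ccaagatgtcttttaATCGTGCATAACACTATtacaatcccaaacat
LRX1 had 41.2, 25.3 and 31.6 FPKM in the root libraries and 0.04, 0.07 and 0.14 FPKM in the shoot libraries (log2 difference 8.09 ± 0.37, adjusted p = 1.43e-13), and PRP1 had 88, 71 and 48 counts in root and none in shoot (at least 49.5-fold higher in root).

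Stomata, the epidermal pores of the shoot, gave the mirror image. Of 14 members 13 were higher in shoot and 0 higher in root (median -6.49, or -5.7 with 6 genes at their bound). The shares over all tested genes were 22.0% and 21.7%. None of the 14 overlapped, as held for 69.3% of all tested genes. The guard cell potassium channel KAT1 (AT5G46240) had no count in root and 16.9, 36.7 and 17.5 FPKM in shoot (at least 877-fold higher in shoot). FAMA (AT3G24140), the transcription factor of the last step of guard cell formation, likewise had no count in root and 14.8, 16.6 and 18.8 FPKM in shoot (at least 466-fold). EPFL9, the peptide stomagen that promotes stomata, had 0, 0 and 1 counts in root and 144, 115 and 165 counts in shoot (591-fold, 95% interval 106 to 23390). The gene that was not called, OST1, encodes a kinase of abscisic acid signalling that is known from guard cells and also acts elsewhere. It had 11.6, 11.8 and 10.8 FPKM in the root libraries and 12.8, 12.6 and 13.4 FPKM in the shoot libraries (log2 difference -0.68 ± 0.15, adjusted p = 3.89e-04).

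Among regulators of root patterning, 14 of 16 were higher in root and 0 higher in shoot (median 4.42, or 4.02 with 3 genes at their bound). The shares over all tested genes were 21.7% and 22.0%. The auxin exporter PIN2, which acts in the epidermis and cortex of the root tip, had 29.7, 40.4 and 37.9 FPKM in the root libraries and 0.38, 0.26 and 0.22 FPKM in the shoot libraries (log2 difference 6.45 ± 0.3, adjusted p = 1.21e-13). SMB, a regulator of root cap maturation, had 38, 72 and 66 counts in root and none in shoot (at least 42.1-fold higher in root). PLT1, a regulator of the root stem cell niche, had 1.96, 3.02 and 2.9 FPKM in the root libraries and 0, 0.04 and 0.04 FPKM in the shoot libraries (69.3-fold, 95% interval 18.9 to 576). WOX5 and SCR were not called, and their root and shoot libraries overlapped in TMM-scaled counts. WOX5, which marks the quiescent centre, had 0.6, 2.16 and 1.68 FPKM in the root libraries and 0.72, 0.83 and 0.93 FPKM in the shoot libraries (log2 difference 0.33 ± 0.38, adjusted p = 0.454), a low level in both organs. SCR, which specifies the endodermis and is also known from shoots, had 9.84, 11.3 and 12.6 FPKM in the root libraries and 9.15, 6.67 and 8.43 FPKM in the shoot libraries (log2 difference -0.02 ± 0.17, adjusted p = 0.931).

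Of 23 genes of the shoot meristem and of leaf polarity, 18 were tested. Of these, 12 were higher in shoot, 1 higher in root and 5 not called (median -1.92). Over all tested genes 22.0% were higher in shoot and 21.7% higher in root. The YABBY genes, which mark the outer side of lateral organs, were at or near 0 counts in root. FIL (AT2G45190) had no count in root and 53.5, 41.4 and 29.98 FPKM in shoot (at least 682-fold higher in shoot). YAB3 had no count in root and 34.3, 31.00 and 38.2 FPKM in shoot (at least 701-fold). YAB5 also had no count in root (at least 339-fold), and YAB2 had 0, 1 and 1 counts there against 266, 206 and 209 in shoot. The meristem gene STM had no count in root and 44, 23 and 26 in shoot (at least 43.2-fold), a low level in a whole shoot. KNAT6, a related homeobox gene, was the member that was higher in root, with 9.38, 8.03 and 7.77 FPKM in the root libraries and 3.92, 2.14 and 2.17 FPKM in the shoot libraries (log2 difference 1.12 ± 0.25, adjusted p = 5.76e-04), and fell under the 2-fold limit without shoot replicate 3 (log2 difference 0.96). AS1, a regulator of leaf identity, had 17.3, 13.5 and 11.8 FPKM in the root libraries and 28.4, 29.6 and 56.8 FPKM in the shoot libraries (log2 difference -1.92 ± 0.29, adjusted p = 7.47e-06), with shoot replicate 3 highest. The 5 members not tested were WUS, CLV3, CUC1, CUC2 and CUC3, which had few or no counts in either organ.

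Ion transport lists held genes called in either direction. The plot of transporter differences shows potassium and sodium, nitrogen, and phosphate, sulphate, metal and boron genes side by side. Of 17 potassium and sodium genes 8 were higher in root, 5 higher in shoot and 4 not called (median 0.97). Of all tested genes 21.7% were higher in root and 22.0% higher in shoot. AKT1 (AT2G26650), the inward channel of root potassium uptake, had 86.04, 81.1 and 91.4 FPKM in the root libraries and 4.72, 7.27 and 7.61 FPKM in the shoot libraries (log2 difference 3.22 ± 0.22, adjusted p = 5.47e-11). Its regulators were also root-high, the silent subunit KC1 with a log2 difference of 4.01 ± 0.21 and the kinase CIPK23 with 2.49 ± 0.16. SKOR, the outward channel that loads potassium into the xylem, had 8.03, 10.7 and 9.06 FPKM in the root libraries and 0.2, 0.37 and 0.2 FPKM in the shoot libraries (log2 difference 4.67 ± 0.28, adjusted p = 9.10e-12). HAK5, the high-affinity potassium carrier, was low in root with 2.58, 1.66 and 1.16 FPKM in the root libraries and 0, 0.13 and 0 FPKM in the shoot libraries (log2 difference 4.76 ± 1.01, adjusted p = 4.18e-04). The size of this difference was unsure, at 4.18 to 8.61 without single libraries. For AKT1, SKOR and HAK5 every root library lay above every shoot library. On the shoot side, AKT2, a channel of the phloem, had 0.41, 0.19 and 0.25 FPKM in the root libraries and 11.2, 11.2 and 4.45 FPKM in the shoot libraries (log2 difference -5.48 ± 0.5, adjusted p = 6.03e-09).

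Calcium sensors of the salt response were divided in the same way. SOS3 (CBL4), which activates the kinase SOS2 and is known from roots, had 13.9, 16.8 and 16.6 FPKM in the root libraries and 1.94, 0.96 and 3.01 FPKM in the shoot libraries (log2 difference 2.5 ± 0.26, adjusted p = 4.34e-08). CBL10, which acts with SOS2 in shoots, had 1.07, 1.78 and 0.71 FPKM in the root libraries and 24.97, 17.4 and 17.4 FPKM in the shoot libraries (log2 difference -4.55 ± 0.32, adjusted p = 1.05e-10). SOS1, the sodium exporter that this pathway activates, had 13.6, 15.04 and 14.2 FPKM in the root libraries and 5.12, 5.57 and 4.69 FPKM in the shoot libraries and missed the 2-fold limit (log2 difference 0.97 ± 0.12, adjusted p = 5.44e-07), which it passed without shoot replicate 2 (log2 difference 1.09) and with library-size scaling (1.48). HKT1, which retrieves sodium from the xylem, had 0.2, 0.3 and 0.25 FPKM in the root libraries and 1.5, 1.98 and 1.21 FPKM in the shoot libraries (log2 difference -3.12 ± 0.63, adjusted p = 2.00e-04), so its level was low in both organs. In FPKM the 3 root libraries lay above the 3 shoot libraries for SOS1, and below them for CBL10 and HKT1.

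Of 14 nitrogen transporters 13 were tested, of which 8 were higher in root, 3 higher in shoot and 2 not called (median 3.2), the shoot count lying near the 22.0% of all tested genes. The high-affinity nitrate uptake system stood out by level. NRT2.1 (AT1G08090), its transporter, had 809.9, 759.9 and 524 FPKM in the root libraries and 6.71, 6.34 and 4.79 FPKM in the shoot libraries (log2 difference 6.37 ± 0.61, adjusted p = 1.28e-08). NRT3.1, its partner protein, had 1047, 789 and 635 FPKM in the root libraries and 17.2, 19.2 and 18.1 FPKM in the shoot libraries (log2 difference 5.0 ± 0.26, adjusted p = 1.08e-12). The ammonium transporter AMT1;3 had the largest difference, with 117, 104 and 105 FPKM in the root libraries and 0.45, 0.54 and 0.19 FPKM in the shoot libraries (log2 difference 7.59 ± 0.36, adjusted p = 2.49e-13). All 3 were high in each root library. NRT1.7 (AT1G69870), which loads nitrate of old leaves into phloem, and NRT1.4, known from petioles, were shoot-high. NRT1.7 had 3.46, 4.14 and 3.3 FPKM in the root libraries and 23.7, 17.4 and 32.2 FPKM in the shoot libraries (log2 difference -3.23 ± 0.4, adjusted p = 5.56e-07), and NRT1.4 had a log2 difference of -3.15 ± 0.29.

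Of 24 genes of phosphate, sulphate, metal and boron transport and of the plasma membrane proton pump, 23 were tested, of which 15 were higher in root, 6 higher in shoot and 2 not called (median 3.06), again with a shoot count near the 22.0% of all genes. Within families, uptake forms and leaf forms went opposite ways. PHT1;1 (AT5G43350), a phosphate uptake carrier, had 158, 173 and 147 FPKM in the root libraries and 1.62, 0.92 and 0.48 FPKM in the shoot libraries (log2 difference 6.81 ± 0.48, adjusted p = 1.10e-10). PHT2;1, the phosphate carrier of the chloroplast envelope, had 5.15, 4.11 and 2.66 FPKM in the root libraries and 78.2, 52.4 and 21.03 FPKM in the shoot libraries (log2 difference -4.17 ± 0.53, adjusted p = 7.13e-07), with shoot replicate 3 lowest of the shoots. For sulphate, SULTR1;2, an uptake carrier, had 77.1, 78.2 and 88.02 FPKM in the root libraries and 3.31, 0.98 and 1.74 FPKM in the shoot libraries (log2 difference 4.85 ± 0.39, adjusted p = 7.26e-10), while SULTR2;1 of the vascular tissue had 10.4, 9.61 and 8.76 FPKM in the root libraries and 76.1, 56.6 and 62.8 FPKM in the shoot libraries (log2 difference -3.26 ± 0.19, adjusted p = 4.95e-12). For iron, IRT1, which takes up ferrous iron, had 507, 793 and 459 counts in root and 0, 2 and 0 in shoot (631-fold, 95% interval 174 to 5216). FIT, the transcription factor above it, had 43.1, 40.00 and 45.9 FPKM in the root libraries and 0.6, 1.57 and 1.98 FPKM in the shoot libraries (log2 difference 4.45 ± 0.31, adjusted p = 7.07e-11). The ferric reductases FRO2, FRO6 and FRO7 are known from the root surface, leaf cells and the chloroplast. FRO2 had 12.7, 22.6 and 10.9 FPKM in the root libraries and 0.43, 0.43 and 0.07 FPKM in the shoot libraries (log2 difference 5.12 ± 0.69, adjusted p = 1.54e-06). FRO6 had 0.03, 0.1 and 0.07 FPKM in the root libraries and 119, 68.1 and 27.8 FPKM in the shoot libraries (log2 difference -10.43 ± 0.9, adjusted p = 2.32e-09). FRO7 had no count in root and 21.9, 9.49 and 2.95 FPKM in shoot (at least 470.5-fold higher in shoot). Both leaf reductases were lowest in shoot replicate 3. Of the proton pumps, AHA2 (AT4G30190) had 630.4, 587 and 592 FPKM in the root libraries and 50.7, 47.5 and 55.3 FPKM in the shoot libraries (log2 difference 3.06 ± 0.18, adjusted p = 4.86e-12) and AHA1 had 260.4, 258 and 245 FPKM in the root libraries and 149, 143 and 218 FPKM in the shoot libraries (log2 difference 0.09 ± 0.2, adjusted p = 0.704).

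**Figure D3:**
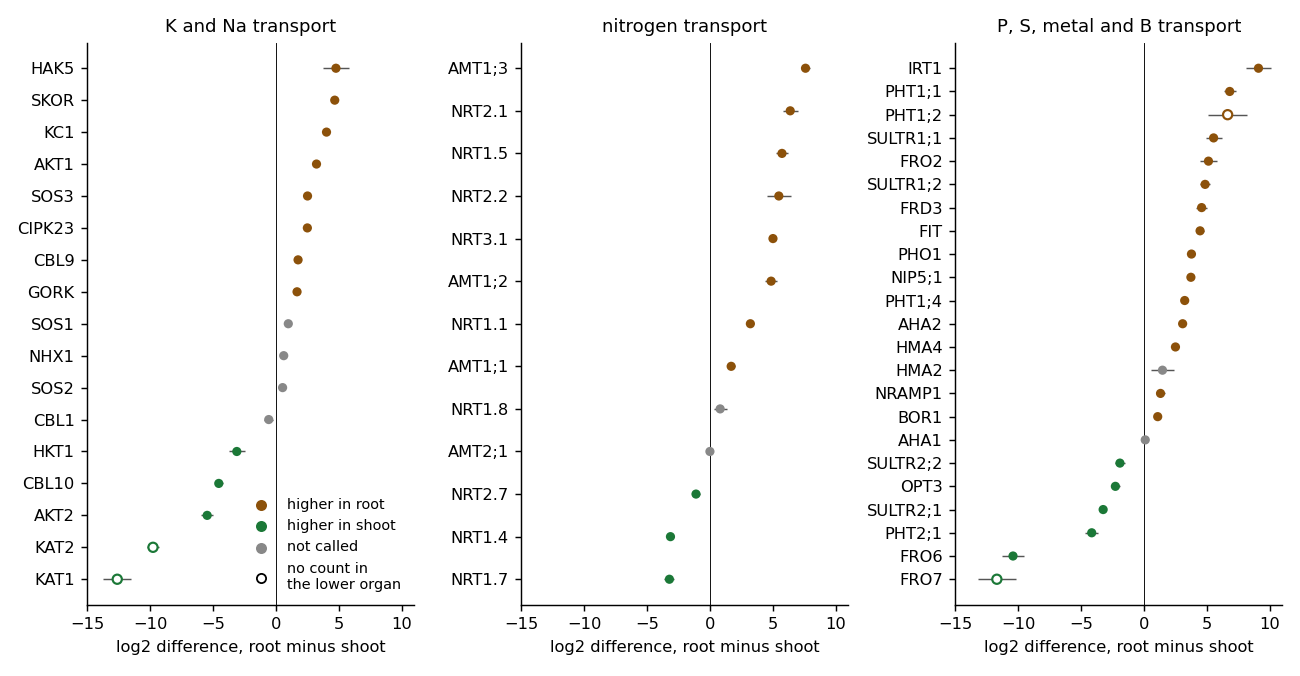
Log2 difference of root minus shoot with its standard error in neo-tetraploid controls for transport genes, in 3 panels of potassium and sodium, nitrogen, and phosphate, sulphate, metal and boron genes. Brown points were called higher in root, green points higher in shoot and grey points not called, and open points had no count in the lower organ. AMT1;3 at 7.59 and IRT1 at 9.09 lie farthest to the root side of their panels, and KAT1, NRT1.7 and FRO7 farthest to the shoot side.

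Genes of tissues that both organs share differed by smaller amounts, although the xylem list was one-sided. Of 14 genes of xylem and secondary walls 12 were tested. Of these, 11 were higher in root and 0 higher in shoot (21.7% and 22.0% of all tested genes were), around a median of only 1.76. XCP1, a protease of dying xylem cells, had both the highest level and the largest difference, with 119, 107 and 116 FPKM in the root libraries and 13.5, 8.97 and 9.97 FPKM in the shoot libraries (log2 difference 2.9 ± 0.19, adjusted p = 3.44e-11). CESA7, a cellulose synthase of secondary walls, had 14.9, 11.2 and 14.9 FPKM in the root libraries and 2.86, 2.22 and 1.88 FPKM in the shoot libraries (log2 difference 2.06 ± 0.18, adjusted p = 3.05e-09). The regulator VND6 was not called, and NST1 and NST3 had too few counts to be tested. Of 14 genes of the mitotic cell cycle 1, CYCB1;3, was higher in root and 13 were not called (median 0.34), while 43.7% of all tested genes were called. KNOLLE, which acts in the fusion of membranes at the new cell wall, had 36.6, 30.9 and 28.6 FPKM in the root libraries and 31.2, 22.01 and 30.98 FPKM in the shoot libraries (log2 difference -0.3 ± 0.14, adjusted p = 0.0659). Of 9 genes in use as reference genes 8 were not called, and GAPC1 was higher in root (log2 difference 1.62 ± 0.27). UBQ10 had 979, 1118 and 1069 FPKM in the root libraries and 536, 582 and 602 FPKM in the shoot libraries (log2 difference 0.38 ± 0.17, adjusted p = 0.0625). The median of the reference genes was 0.18 with TMM, and the distance between the 2 scalings given above applies to them as to all genes.

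The most abundant transcripts were chosen by level among called genes with at least a 4-fold difference. Their root and shoot libraries also had to lie apart in TMM-scaled counts, so the lack of overlap in these genes follows from the choice. In root these were MT1A, PYK10, AT2G36255, GRP9, AT5G33355, AT4G11320, MLP328 and MLP34. MT1A (AT1G07600), a metallothionein, had 24749, 20605 and 21055 FPKM in the root libraries and 1429, 1374 and 1078 FPKM in the shoot libraries (log2 difference 3.59 ± 0.22, adjusted p = 1.03e-11). PYK10 (AT3G09260), the beta-glucosidase of ER bodies in roots, had 6475, 6110.2 and 6082 FPKM in the root libraries and 307, 182 and 232 FPKM in the shoot libraries (log2 difference 4.2 ± 0.25, adjusted p = 8.16e-12). AT2G36255 varied most of the 8 among root libraries, with 9151, 3570.2 and 2153 FPKM in the root libraries and 15.6, 16.3 and 2.05 FPKM in the shoot libraries (log2 difference 8.27 ± 0.84, adjusted p = 3.05e-08). GRP9, a glycine-rich protein, had 2663, 2397 and 2795 FPKM in the root libraries and 67.1, 18.8 and 30.9 FPKM in the shoot libraries (log2 difference 5.59 ± 0.45, adjusted p = 8.00e-10). The other 4 had log2 differences of 4.56 (AT4G11320) to 8.3 (AT5G33355). In shoot the 8 were LHCB1.3, RBCS1A, LHCB1.5, PSBR, LHCA1, LHCB1.4 and 2 chloroplast genes of 23S rRNA, ATCG00950 and ATCG01180, which carried identical values and are copies of one gene. PSBR (AT1G79040), a subunit of photosystem II, had 154, 132 and 71.95 FPKM in the root libraries and 5659.5, 7629 and 5527 FPKM in the shoot libraries (log2 difference -6.23 ± 0.35, adjusted p = 2.91e-12). LHCB1.5 had 49.4, 67.8 and 21.9 FPKM in the root libraries and 8788, 10685 and 7761 FPKM in the shoot libraries (log2 difference -8.12 ± 0.72, adjusted p = 3.99e-09). The shoot group thus holds 6 nuclear genes of chloroplast proteins and 2 genes of the chloroplast ribosome.

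A stricter view counts genes detected in one organ only, with at most 3 counts in each library of the other organ and at least 30 in each library of their own. There were 580 such genes in root, of which 134 had no shoot count, and 309 in shoot, of which 104 had no root count. The limits apply to counts without TMM scaling, whose factors were 1.152 to 1.175 in these roots and 0.775 to 0.857 in these shoots. At the same scaled level a root library holds more counts, so the limits favour root and the 2 numbers are not directly comparable. By mean count, the leading root-restricted gene was AT4G12520, with 1822, 2220 and 2416 counts in root and none in shoot (at least 1545-fold higher in root). By the same measure, which favours long transcripts, it was followed by BGLU34, AT5G43520, PP2-A3 and AT5G46890. BGLU34 had 62.1, 84.95 and 93.1 FPKM in the root libraries and 0.1, 0.13 and 0.07 FPKM in the shoot libraries (log2 difference 9.09 ± 0.65, adjusted p = 1.29e-10). In shoot, AT1G23130 led by count with 0, 0.12 and 0.35 FPKM in the root libraries and 729.6, 789 and 715 FPKM in the shoot libraries (log2 difference -12.58 ± 0.46, adjusted p = 4.44e-15), followed by FBA5, AT1G70820, COR15A and COR15B. FBA5, a cytosolic form of the glycolytic enzyme aldolase, had 0.06, 0 and 0.19 FPKM in the root libraries and 426, 434 and 289 FPKM in the shoot libraries (log2 difference -12.49 ± 0.57, adjusted p = 1.00e-13). COR15A (AT2G42540), a chloroplast stroma protein known from cold acclimation, had 0.12, 0.24 and 0.24 FPKM in the root libraries and 236, 247 and 471 FPKM in the shoot libraries (log2 difference -11.02 ± 0.81, adjusted p = 2.09e-10), with shoot replicate 3 above the others. By the rule that chose them, all of these genes are at or near 0 in the other organ in every library. With a limit of 0 counts in place of 3 the number of restricted genes is that of the genes without any count.

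The organ differences of neo-tetraploids were then set beside those of diploids, measured in 6 other libraries. In diploid controls 9289 genes were called (43.5%), 4763 higher in root (22.3%) and 4526 higher in shoot (21.2%). Of these, 8509 were called in the same direction in both ploidies, 91.2% of the 4n calls and 91.6% of the 2n calls. Of the 822 genes called only in neo-tetraploids, 792 had the same sign in diploids, and 425 also had an adjusted p under 0.05 there. Of the 779 genes called only in diploids, 753 had the same sign in neo-tetraploids. The log2 differences of both ploidies correlated across the 21338 genes with r = 0.968, a description over genes that share libraries and are not independent. The 580 root-restricted and 309 shoot-restricted genes were all called in the same direction in diploids, and 456 and 228 of them were also restricted there. Those that were not restricted in diploids reached at most 14 counts in a 2n shoot library and 30 in a 2n root library.

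The number of members called in each direction was the same in both ploidies for 13 of the 17 lists. All 21 antenna genes, 15 Casparian strip genes and 14 root hair genes were called in the same direction in both ploidies, with medians in diploids of -8.48, 6.23 and 7.71. The other 4 lists differed by 1 gene each, with 15 suberin, 9 nitrogen, 10 xylem and 0 mitotic genes called higher in root in diploids. FD3 had a log2 difference of 3.85 ± 0.21 in diploids, CASP1 6.95 ± 0.31 and AKT1 3.44 ± 0.22. The tested difference between the ploidies is the interaction given below.

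**Figure D4:**
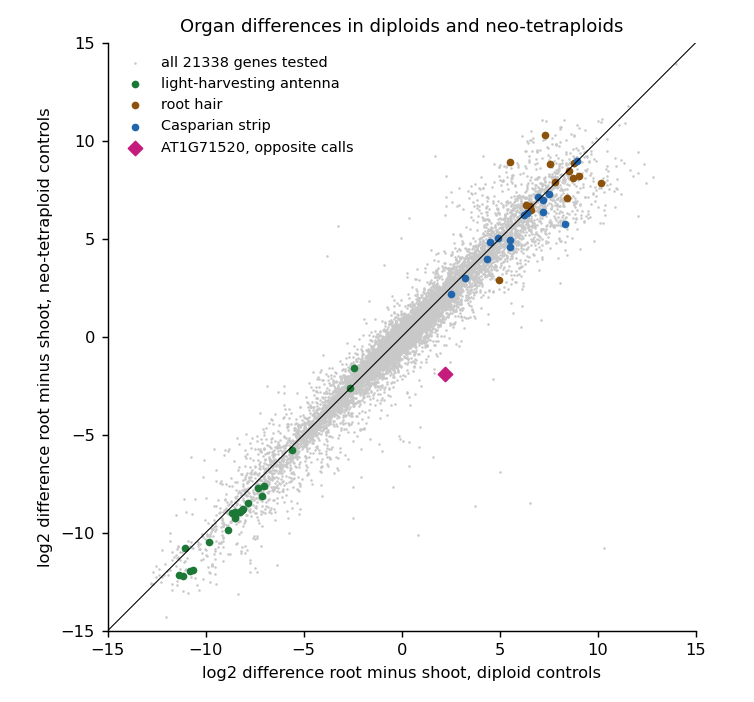
Log2 difference of root minus shoot in diploid controls (horizontal) and in neo-tetraploid controls (vertical) for all 21338 tested genes in grey, with the antenna, root hair and Casparian strip lists in colour and the line of equal values. The points lie along the line (r = 0.968), and AT1G71520, the 1 gene called in opposite directions, lies off it at 2.19 and -1.92.

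The test of the difference itself, the interaction of organ and ploidy, called 0 genes (0.0%). By edgeR's quasi-likelihood test 910 genes had an unadjusted p under 0.05 and the lowest adjusted p was 0.258, while DESeq2 called 2 genes and limma 4 on log2(FPKM + 1) and 0 on log2(FPKM + 0.1). This does not show that the organ differences are equal. Over the 10111 genes called in either ploidy, the interaction had a median standard error of 0.459 on the log2 scale, and 83.9% of its values lay within 1 log2 unit of 0, with the 5th percentile at -1.63 and the 95th at 1.13. The 5 genes with the smallest p in edgeR's test were CNX2, EXLA3, FBA2, SEN1 and IQD20, none of them called by it. DESeq2 called FBA2 and SEN1 (adjusted p = 9.47e-04 for both), limma on log2(FPKM + 1) called EXLA3 (adjusted p = 0.0295), and edgeR called SEN1 without replicate 1 of the 4n control shoots (adjusted p = 0.0305). EXLA3, an expansin-like gene, had 27.3, 46.9 and 41.4 FPKM in the root libraries and 3.2, 2.3 and 4.45 FPKM in the shoot libraries in neo-tetraploids, and 4.37, 4.76 and 5.51 FPKM in roots and 2.09, 2.72 and 3.48 FPKM in shoots of diploids (interaction 2.77 ± 0.52, adjusted p = 0.258). FBA2 (AT4G38970), a chloroplast aldolase, had 1.04, 1.39 and 1.39 FPKM in the root libraries and 1552, 1474 and 1121 FPKM in the shoot libraries in neo-tetraploids and 4.53, 10.8 and 5.02 FPKM in roots and 1894, 1788 and 1374 FPKM in shoots of diploids (interaction -2.1 ± 0.4, adjusted p = 0.258). SEN1, a gene known from dark-treated and ageing leaves, had 5.12, 5.12 and 4.12 FPKM in 4n roots, 14.5, 13.98 and 6.71 FPKM in 2n roots, 162, 269 and 295 FPKM in 4n shoots and 59.3, 94.1 and 94.4 FPKM in 2n shoots (interaction -2.81 ± 0.54, adjusted p = 0.258). CNX2 and IQD20 had interactions of -0.83 ± 0.15 and 4.59 ± 0.99.

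AT1G71520 was the 1 gene called in opposite directions. It had 2.35, 3.46 and 4.41 FPKM in the root libraries and 1.57, 9.03 and 16.97 FPKM in the shoot libraries in neo-tetraploids (log2 difference -1.92 ± 0.65, adjusted p = 0.0146) and 1.35, 3.08 and 6.11 FPKM in roots and 0, 1.25 and 0.31 FPKM in shoots of diploids (log2 difference 2.19 ± 0.88, adjusted p = 0.0373). Its 4n libraries overlapped, since shoot replicate 1 lay below the roots, and the test of the difference gave an adjusted p of 0.766. Without that shoot library the test called AT1G71520 (-4.62, adjusted p = 0.0388), and it is among the genes described below for that library. The 4n call was lost without root replicate 1 or shoot replicate 3 (adjusted p = 0.0562 and 0.137), and the 2n call without root replicate 2 or 3 or shoot replicate 1 or 3 (adjusted p = 0.0536 to 0.174). Library-size scaling (adjusted p = 0.0528) and limma (adjusted p = 0.122 to 0.313) also lost the 4n call. A fit of the 12 control libraries alone lost the 2n call (adjusted p = 0.0828).

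The interaction of organ and ploidy was then counted by list, without a call in edgeR's test. It was below 0 for 18 of 21 antenna genes (median -0.67) and 18 of 20 Calvin cycle genes (median -0.40). So it was for 7 of 7 ferredoxin and reductase genes, against 11780 of all 21338 genes (median -0.03). A value below 0 means a larger shoot excess in neo-tetraploids or, for root-high genes such as FD3, RFNR1 and RFNR2, a smaller root excess. Photorespiration was evenly divided with 6 below and 6 above 0, and lists of other functions were one-sided as well, with 11 of 12 xylem genes and 13 of 18 genes of the shoot meristem and leaf polarity above 0. By edgeR no antenna gene and 5 Calvin cycle genes had an unadjusted interaction p under 0.05, and 0 were called, while DESeq2 called the Calvin cycle gene FBA2. The larger part lay on the root side, where the median antenna gene was lower in 4n than in 2n roots by a log2 difference of -0.67, against -0.07 in shoots. The summed antenna level was 249, 312 and 148 FPKM in 4n roots and 411, 532 and 258 FPKM in 2n roots, so the groups overlapped, but between libraries of the same replicate number, which deviated together, the ratio of 4n to 2n was 0.607, 0.586 and 0.576. The summed Calvin cycle level was 474, 465 and 384 FPKM in 4n roots and 604, 609.7 and 499 FPKM in 2n roots, without overlap. Among all tested genes 35 were called between 4n and 2n control roots and 6 between shoots, and 98 and 133 with the replicate number as a block. None of these was an antenna gene in either fit, while FBA2 was called lower in 4n roots in both fits and SBPASE, another Calvin cycle enzyme, with the block. The members share libraries and move together, so their number is no measure of certainty.

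The interaction test depended on 1 library. Without replicate 1 of the 4n control shoots, 35 genes were called, 34 of them with a value below 0, and with all libraries each of the 35 had an unadjusted p under 0.05 and 0 were called. In 34 of the 35, shoot replicate 1 was the lowest of the 3 neo-tetraploid shoot libraries, and replicates 2 and 3 lay above all diploid control shoots. The median ratio of replicates 2 and 3 to replicate 1 was 3.83, while the median ratio of 4n to 2n in roots was 1.06. EDS1 (AT3G48090), a regulator of immune signalling, had 16.1, 42.96 and 48.6 FPKM in 4n shoots and 11.4, 18.4 and 13.4 FPKM in 2n shoots. PER4 (AT1G14540), a peroxidase, had 1.3, 17.3 and 27.8 FPKM in 4n shoots and 0, 2.23 and 0.49 FPKM in 2n shoots. WRKY6 (AT1G62300), a transcription factor known from senescence and phosphate supply, had 6.36, 17.4 and 24.6 FPKM and 6.29, 9.36 and 8.6 FPKM. In these 3 genes replicate 1 lay within the range of the diploids, while in 12 of the 35, among them SEN1, it lay above all diploid control shoots, as the plot of these genes by shoot library shows. SDR5, a dehydrogenase-like gene, shared the smallest adjusted p without replicate 1 with AT1G49000 (SDR5 -3.59 ± 0.47, adjusted p = 0.00722), and had 0.34, 3.33 and 4.1 FPKM in 4n shoots and 0.09, 0.43 and 0.25 FPKM in 2n shoots. The 1 gene with a value above 0 was AT5G61350 (3.88 ± 0.73). These genes were found by leaving the library out and were named after their values were seen, so they are a description of where the library differs. The cause of its difference was not tested.

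**Figure D5:**
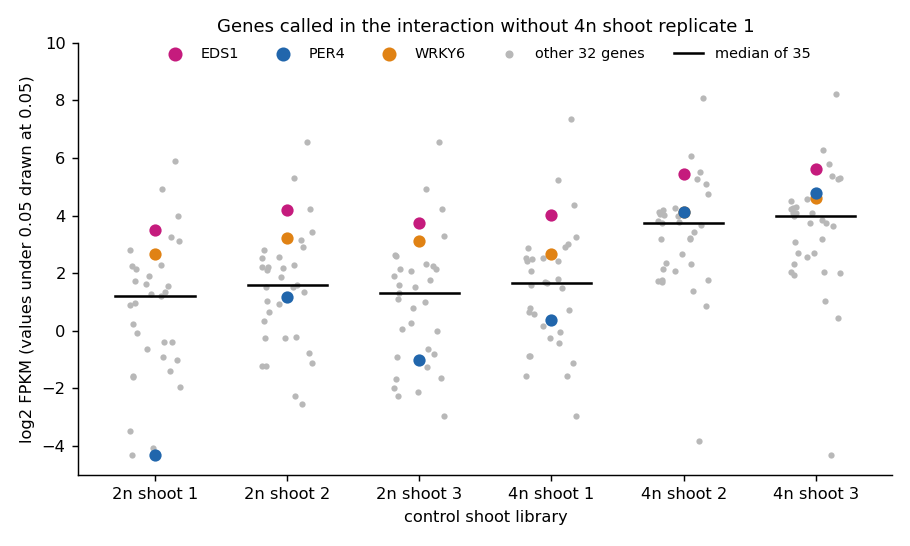
Log2 FPKM in the 3 diploid and 3 neo-tetraploid control shoot libraries of the 35 genes called in the interaction of organ and ploidy when replicate 1 of the 4n shoots is left out, 1 point a gene, with the median of the 35 as a bar and values under 0.05 FPKM drawn at 0.05. EDS1, PER4 and WRKY6 are coloured, and the median of 4n replicate 1 lies near those of the diploids while the medians of replicates 2 and 3 lie higher.

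With 35 mM added NaCl, 9338 genes were called between root and shoot of neo-tetraploids (43.8%), 4735 higher in root (22.2%) and 4603 higher in shoot (21.6%), and 4118 of the 4638 genes higher in root and 4140 of the 4694 higher in shoot were called in the same direction. The interaction of organ and NaCl called 12 genes (0.0562%), 7 above 0 (0.0328%) and 5 below 0 (0.0234%), and 2325 genes had an unadjusted p under 0.05. The number moved with the method and with single libraries. DESeq2 called 98 genes above 0 and 45 below 0, limma on log2(FPKM + 1) 56 and 80, and edgeR with the replicate block 78 and 26. Without replicate 1 of the 4n control shoots the counts were 44 and 12, without replicate 3 of the NaCl roots 18 and 15, and without replicate 2 of the NaCl roots 2 and 0. Leaving out any other of the 12 libraries gave 2 to 15 above 0 and 2 to 8 below 0. AT3G54830 had 0.27, 0.21 and 0.43 FPKM in control roots, 26.6, 16.4 and 13.5 in control shoots, 1.23, 1.84 and 1.27 in NaCl roots and 4.11, 2.48 and 3.78 in NaCl shoots. Its shoot excess was smaller with NaCl (change of the organ difference 4.68 ± 0.58, adjusted p = 0.00222). EARLI1 (AT4G12480), a lipid transfer-like protein known from cold responses, had 36.98, 27.97 and 30.9 FPKM in control roots, 10.01, 6.83 and 25.2 in control shoots, 161, 89.6 and 47.4 in NaCl roots and 2.97, 1.46 and 1.27 in NaCl shoots. It did not differ by a call in 4n controls and was root-high with NaCl (change of the organ difference 4.49 ± 0.63, adjusted p = 0.00874). In diploid controls EARLI1 was called higher in root (log2 difference 2.67 ± 0.41, adjusted p = 8.39e-06). Its interaction of organ and ploidy was not called (-1.95 ± 0.56, adjusted p = 0.773). Its neighbour AZI1 was also among the 12. AT1G12010 had 45.2, 41.7 and 51.4 FPKM in control roots, 3.21, 3.31 and 3.45 in control shoots, 10.3, 10.7 and 16.8 in NaCl roots and 4.24, 2.91 and 6.97 in NaCl shoots (change of the organ difference -2.34 ± 0.35, adjusted p = 0.0124), and was not called without replicate 2 of the NaCl roots (adjusted p = 0.0676). AT5G10625 had 33.05, 38.1 and 33.1 FPKM in control roots, 0.98, 0.8 and 1.91 in control shoots, 25.2, 19.9 and 21.4 in NaCl roots and 3.53, 4.41 and 3.34 in NaCl shoots (change of the organ difference -2.26 ± 0.35, adjusted p = 0.0188), and was not called without replicate 2 of the NaCl roots or of the NaCl shoots (adjusted p = 0.0676 and 0.0701). AT5G06930 had 8.86, 9.97 and 9.89 FPKM in control roots, 3.44, 3.52 and 2.5 in control shoots, 7.77, 8.26 and 7.07 in NaCl roots and 6.35, 5.25 and 5.6 in NaCl shoots (change of the organ difference -1.17 ± 0.2, adjusted p = 0.0339), and was not called without any 1 of 7 libraries, the 3 control roots, replicates 1 and 2 of the NaCl roots and replicates 1 and 2 of the NaCl shoots (adjusted p = 0.0521 to 0.124). For these 3 the root excess was smaller with NaCl. TRN2 had an adjusted p of 0.0237, but its change of 0.93 was under the 2-fold limit, which it passed without replicate 2 of the control shoots (1.01).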

How the data were processed

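Messenger RNA of roots and shoots had been enriched with oligo(dT), read as single ends of 50 bases on a BGISEQ-500 and mapped to TAIR10 with HISAT and Bowtie2. The authors deposited, for each library, the expected count of each gene estimated by RSEM and its FPKM, together with gene lengths, and a gene without reads was not listed and was set to 0 here. Versions of these tools are not given in the sources used here. Whether counting used strand is not given either, so reads of overlapping genes cannot be told apart, and reads of near-identical genes may be exchanged.

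Expected counts were rounded to whole numbers, and 21338 of 26405 listed genes passed a minimum of 10 counts, reached by 3 or more libraries. All 24 libraries were fitted with 1 mean for each of 8 groups in edgeR 4.0.16 (TMM scaling, quasi-likelihood test, 16 residual degrees of freedom, R 4.3.3), and contrasts gave the organ difference and its interactions with ploidy and with NaCl. The study itself tested FPKM with a fold limit, and limma 3.58.1 on log2(FPKM + 1) and log2(FPKM + 0.1), for genes reaching an FPKM of 1 in 3 or more libraries, was run as an alternative beside DESeq2 1.42.0, other scalings, filters and fold limits, a replicate block and each library left out. Same-numbered 4n and 2n control libraries deviated together (r = 0.446, 0.117 and 0.498 in roots, 0.519, 0.468 and 0.558 in shoots), so 4n against 2n within an organ is also given with the block, an alternative added after the data were seen. The fit was also run on simulated counts with known differences set in the 4n control roots, drawn independently for each library. The simulation held no other organ differences and no shared deviations of same-numbered libraries, so it does not show how the tests behave with them. The standard error is the absolute log2 difference divided by the square root of F. A gene with no count in 1 organ has a bound against 3 counts over the group, and a gene with 1 to 3 counts a ratio with an exact 95% interval, which covers counting error only.

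The members, lists and rules were chosen with earlier results of these data known. The genes named were the highest, the most changed and the exceptional members of each list. For each organ the 8 most abundant were named among called genes with at least a 4-fold difference and no overlap between organs. The 5 restricted genes of each organ with the highest mean count, the genes with the smallest interaction p and those of opposite direction were named as well. Other members named were chosen after their values were seen, as was the search for the root hair element. Sequences are RefSeq's (TAIR10.1), of which the gene identifiers of 25978 of the 26405 listed genes matched. Figures were drawn with matplotlib 3.10.9.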

Additional observations from a re-analysis of the deposited data

Results flagged for a closer look

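The organ difference of neo-tetraploids differed between plants with and without added NaCl, by the test of the interaction over all genes, for AT3G54830 (4.68 on the log2 scale), EARLI1 (4.49), AT1G12010 (-2.34), AT5G10625 (-2.26) and AT5G06930 (-1.17). A value above 0 means a larger root excess or a smaller shoot excess with NaCl. Their levels in each library are given above, and the calls of the last 3 were lost without single libraries.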

How the results depend on the processing

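Counts of organ calls moved with the fold limit. Without it 7192 genes were higher in root of neo-tetraploids and 7437 in root of diploids, and with a limit of 4-fold 3058 and 3010 genes were higher in root and shoot of neo-tetraploids, 3115 and 2943 in diploids, and 5602 were shared. Library-size scaling counted 7177 genes higher in root of diploids. The interaction with ploidy had 2 genes above 0 and 2 below 0 with limma on log2(FPKM + 1), the same counts of 2 and 2 without the FPKM filter, and 2 below 0 with DESeq2. The interaction with NaCl (7 above 0, 5 below 0) counted 98 and 45 with DESeq2, 15 and 25 with limma on log2(FPKM + 0.1), 56 and 80 on log2(FPKM + 1), 53 and 79 without the FPKM filter, 3 and 3 at 4-fold, and 9 below 0 with library-size scaling. The number of genes called in opposite directions, 1 in the test reported, was 0 to 5 over all alternatives, and AT1G71520 was not among them with library-size scaling, with limma or with the 12 control libraries alone. Restricted genes numbered 134 in root and 104 in shoot with a limit of 0 counts in the other organ, and 247 and 175 with a minimum of 100.

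Without single libraries the counts were 4559 to 4642 (root) and 4552 to 4720 (shoot) in neo-tetraploids, 4628 to 4750 and 4410 to 4520 in diploids, 8290 to 8466 shared, 604 to 700 restricted to root and 320 to 340 to shoot, 0 to 1 above 0 and 0 to 34 below 0 in the ploidy interaction, and 2 to 44 and 0 to 15 in the NaCl interaction. Replicate numbers are shared by the groups without a stated link, and deviations of same-numbered 4n roots and shoots correlated with r = 0.177, 0.0788 and 0.264, each of the 6 libraries best with its own number. With the replicate block 4687 and 4711 genes were called in neo-tetraploids, 0 in the ploidy interaction, and 78 above 0 and 26 below 0 in the NaCl interaction.

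Genes near 0 changed sign without being called. CAT2 was 0.466 with library-size scaling, 0.758 and 0.750 with limma at the smaller and larger pseudocount, 0.750 without the FPKM filter, 0.156 with the replicate block, 0.0876 with upper-quartile scaling, and -0.488 to 0.272 without single libraries. SCR was 0.474, 0.475, 0.433 and 0.433 under the same scaling and limma settings, 0.116 with upper-quartile scaling, and -0.106 to 0.0615 without single libraries. KNOLLE was 0.189, 0.20, 0.194 and 0.194 under the same scaling and limma settings. Without single libraries WOX5 was -0.0339 to 0.697 and AHA1 -0.00928 to 0.276. Depth limits genes listed at few counts, whose ratios carry wide counting intervals.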

Other observations

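The largest fitted differences between the ploidies in the organ contrast belonged to genes whose counts differed widely between replicates of one group, and none of them was called. These genes were picked after their values were seen. AT1G48598 had either 0 or 275 counts, with 275, 0 and 275 in the 4n control shoots, 0, 275 and 275 in the 2n control roots and 0 in the other control libraries. CRU3 and CRA1, which encode the seed storage proteins called cruciferins, were detected in replicate 1 of several groups. CRA1 had 338, 1 and 1 counts in the 4n control shoots, none in the 4n control roots, 631, 44 and 0 in the 2n control roots and 203, 47 and 3 in the 2n control shoots. CRU3 had 121, 0 and 0 counts in the 4n control shoots, 247, 1 and 0 in the 2n control roots and 12, 0 and 0 in the 2n control shoots. BGLU19 had 55, 1 and 5 counts in the 4n control shoots, 172, 26 and 5 in the 2n control roots and 123, 55 and 9 in the 2n control shoots, with none in the 4n control roots, so that its highest value in each group that had any was again replicate 1.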
